A study of Rattus norvegicus with 8 samples.

Results

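The genes described here are atrophy and autophagy genes of skeletal muscle: the ubiquitin ligases Fbxo32 (atrogin-1) and Trim63 (MuRF1), the transcription factors Foxo1, Foxo3 and Klf15, and the autophagy genes Bnip3, Gabarapl1, Sqstm1 and Map1lc3b. They were chosen by name, as every probe set whose single gene symbol in the platform annotation equals one of these 9 names. Of the 9 genes, 8 had at least 1 probe set of their own, out of 14217 genes so annotated in the whole series. Map1lc3b was annotated only together with a second gene, Map1lc3b2, on 1 probe set, and no value is given for it. The 8 genes had 18 probe sets, of which 12 were bright enough to be tested.

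Expression was measured on Affymetrix rat arrays in the extraocular muscles, which turn the eyeball, of adult Sprague-Dawley rats. The hyperthyroid group (4 rats, numbered 1, 2, 3 and 5) was injected in the abdomen with 25 µg of triiodothyronine (T3) for each 100 g of weight every 2 days for 6 weeks, and was sampled 24 hours after the last dose. The control group (4 rats, numbered 7, 8, 9 and 11) is labelled untreated. The rats weighed 200 ± 40 g before the treatment, and the design gives 8 rats for the 8 arrays. The comparison asks how gene expression in these muscles differs under a chronic excess of thyroid hormone.

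As background, muscle loses mass when protein breakdown exceeds synthesis. When insulin and growth factor signalling through Akt is low, FoxO factors enter the nucleus and switch on Fbxo32, Trim63 and autophagy genes, so that contractile proteins are tagged with ubiquitin for the proteasome and organelles are enclosed in autophagosomes for the lysosome. Glucocorticoids act on the same genes through their receptor and through Klf15, which also drives the breakdown of branched-chain amino acids. Extraocular muscles are known to be spared in several conditions that waste limb muscle.

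The array labelled hyperthyroid 5 stood apart, and its markers went against its tissue label. The summed signal of 10 general muscle fibre genes was 186261 on it, within the 158258 to 219934 of the other arrays. Myh13, the myosin that defines extraocular muscle, however, had a signal of 4.17 on it, against 5430.4 to 9340 on the other 7. All 4 measured extraocular markers were at their lowest on it, and their summed signal was 259 there, against 22863 to 36543 for the other 3 hyperthyroid arrays and 21051 to 31434 for the controls. All 7 slow fibre markers were at their highest on it, with a summed signal of 13266 to 63393 on hyperthyroid and 13858 to 20454 on control arrays. Of 4 limb position genes, 3 were at their highest on it and 1, Hoxd9, was not. Hoxa10 stood at 399 on it, against at most 27.8 on the others, and Hoxd9 at 8.93, within the 2.14 to 20.4 of the others. The summed signal of 7 adipocyte markers was 1204 to 13105 on hyperthyroid and 2505 to 4043 on control arrays, highest on hyperthyroid 5. Of these, Lipe (192) and Pck1 (872) were not at their highest on it. The sum of 5 leukocyte markers was 1185 to 4282 and 1318 to 2233, again highest on it. That of 4 epithelial markers was 44.1 to 324 and 259 to 794, lowest on it, though Spint1 (27.3) was not. Hyperthyroid 2 and 5 were also low in the 6 measured markers of myelin and glia (summed signals of 1455 and 724). That sum was 11604 and 14096 for the other 2 hyperthyroid rats, and 7983 to 17722 for the controls. The Gapdh 3 prime to 5 prime signal ratio, which is higher in shorter RNA, averaged 2.98 ± 1.40 on hyperthyroid and 1.77 ± 0.136 on control arrays (SD, n = 4 each; exact permutation p = 0.229, two-sided, smallest possible 0.0286). This ratio was 3.91, 4.40, 2.18 and 1.44 on hyperthyroid 1, 2, 3 and 5, and 1.67 to 1.97 on control arrays. It was thus lowest on hyperthyroid 5 and highest on hyperthyroid 2 and 1. Hyperthyroid 1, 2 and 3 each lay above all controls, so without hyperthyroid 5 the groups did not overlap in this ratio. The permutation test was not run without that array. Hyperthyroid 5 is included in every mean of 4 hyperthyroid arrays, and values without it are given beside results that it moves.

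None of the 12 tested probe sets passed the test between hyperthyroid and control arrays (limma, Benjamini-Hochberg adjusted over 18625 probe sets at 0.05). The background was also 0%, since 0 of 18625 probe sets passed. At an unadjusted p under 0.05, 2 of the 12 were lower in hyperthyroid arrays, 1 of Klf15 and 1 of Sqstm1, and 0 were higher. The background was 5.3% of all probe sets lower and 6.25% higher, 11.5% in all. With arrays centred on their medians, the split over all probe sets was 567 higher and 1623 lower, against 1164 and 987 as deposited. In direction alone, 5 of the 12 were higher and 7 lower, with a median log2 difference of -0.14. By the brightest probe set of each of the 8 genes the split was 4 and 4, with a median of 0.04 beside 0.01 over all 10446 genes tested. Without hyperthyroid 5, 0 of the 12 passed the adjusted threshold (background 0.156%), and the same 2 were lower at an unadjusted p under 0.05, with 0 higher (background 7.64% lower, 7.55% higher, 15.2% in all). Without both hyperthyroid 2 and 5, 0 of the 12 passed (background 0.0483%), 2 were again lower and 1, of Foxo1, was higher at an unadjusted p under 0.05 (background 6.95% lower, 5.95% higher, 12.9% in all). All differences below are log2, hyperthyroid minus control.

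**Figure D1:**
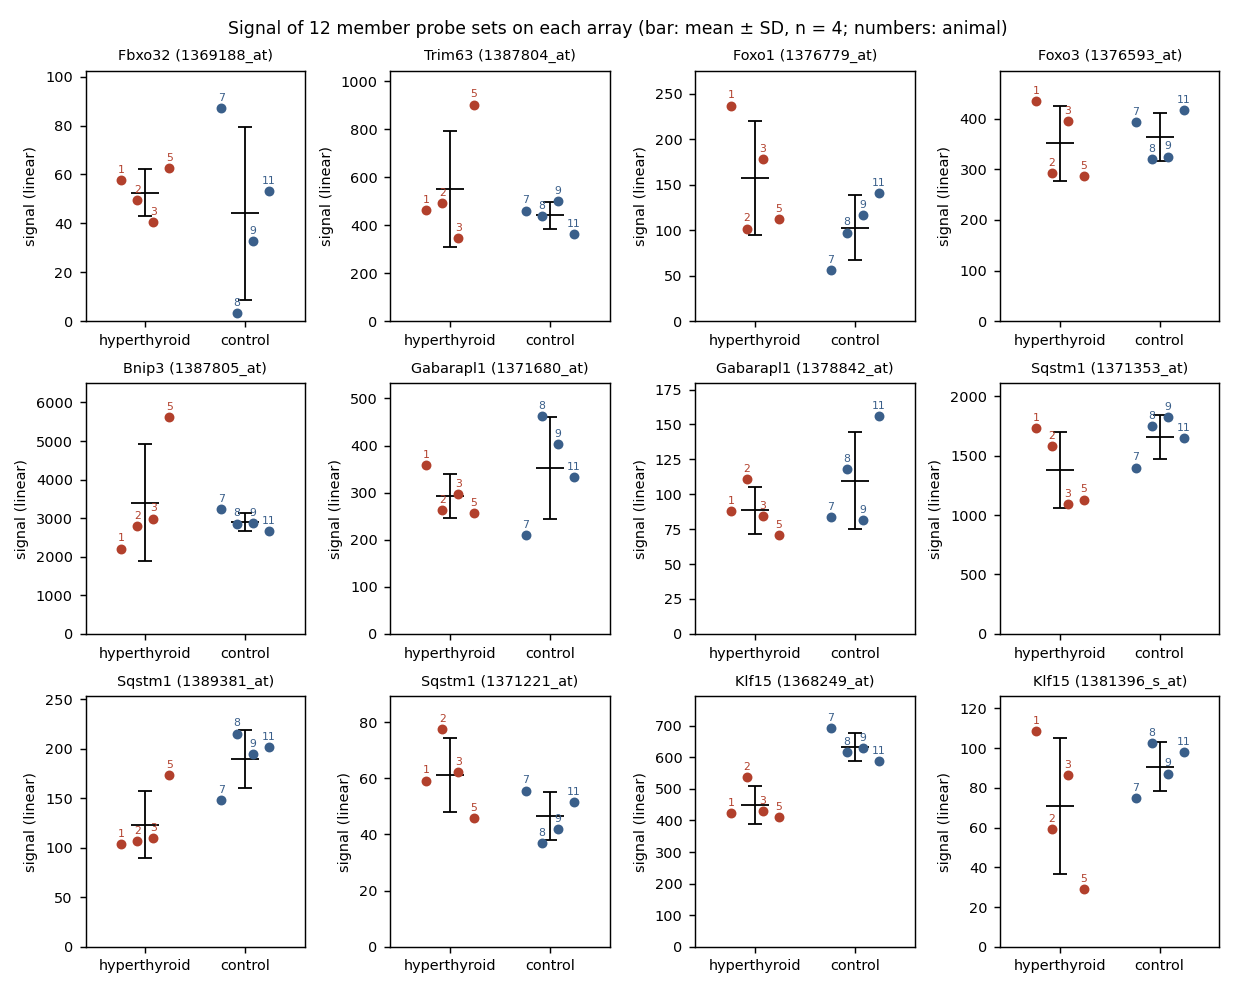
Signal on a linear scale (vertical axis) of the 12 tested probe sets on each hyperthyroid (left) and control (right) array, with the rat's number beside each point and the mean ± SD as a bar (n = 4 each). Only for the brighter Klf15 probe set (409.8 to 538 and 587 to 693) do the groups not overlap, and Trim63 and Bnip3 are highest on hyperthyroid 5.

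Klf15, a zinc finger factor induced by glucocorticoids and fasting, came closest to the threshold. Its brightest probe set (1368249_at) had signals of 422, 538, 429 and 409.8 on hyperthyroid arrays 1, 2, 3 and 5, against 693, 617, 629 and 587 on control arrays 7, 8, 9 and 11. Every hyperthyroid array lay below every control array. The means were 449.7 ± 59.4 in hyperthyroid and 632 ± 44.6 in control muscle (SD, n = 4 each). The log2 difference was -0.50 ± 0.14 (SE), 0.709 of the control level, with an unadjusted p of 0.00461 and an adjusted p of 0.283 in limma. It ranked 299 of 18625 probe sets by p. It was the 1 member probe set of 12 whose groups did not overlap. Of all probe sets, 3.23% were lower and 4.33% higher in hyperthyroid arrays without overlap, 7.55% in all. Without hyperthyroid 5 the difference was -0.45 ± 0.14 (adjusted p = 0.180 in limma), and without both hyperthyroid 2 and 5 it was -0.57 ± 0.15 (adjusted p = 0.170 in limma).

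The second tested Klf15 probe set (1381396_s_at) was dimmer and its groups overlapped. Its signals were 109, 59.3, 86.5 and 29.1 on hyperthyroid 1, 2, 3 and 5, against 75.0, 103, 87.2 and 97.9 on control 7, 8, 9 and 11. The low values were on hyperthyroid 5 and 2. Its log2 difference was -0.50 ± 0.39 (adjusted p = 0.628 in limma), -0.13 ± 0.29 without hyperthyroid 5 and 0.11 ± 0.29 without both. Its sign thus depended on hyperthyroid 2 and 5, unlike that of the brightest probe set. In whole tissue, fewer cells of a type and less RNA per cell cannot be told apart, for Klf15 as for every gene here.

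Foxo1 is the FoxO factor most often tied to muscle wasting. Its brightest probe set (1376779_at) had signals of 237, 102, 178 and 113 on hyperthyroid 1, 2, 3 and 5, against 55.7, 97.3, 117 and 141 on control 7, 8, 9 and 11. Hyperthyroid 1 and 3 lay above all controls and hyperthyroid 2 and 5 within their range. The means were 157 ± 62.9 in hyperthyroid and 103 ± 36.0 in control muscle (SD, n = 4 each), and the log2 difference of 0.61 ± 0.35 did not pass (adjusted p = 0.514 in limma). It was 0.34 without control 7, 0.38 without hyperthyroid 1 and 0.74 without hyperthyroid 5. Without both hyperthyroid 2 and 5 it was 1.08 ± 0.35 (unadjusted p = 0.0102, adjusted p = 0.241 in limma). Hyperthyroid 2 and 5 are also the arrays low in myelin and glia markers, and the part of those markers in this value was not tested.

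Foxo3, which in mouse muscle drives both the ligases and autophagy, differed between the groups by less than the spread of the arrays. Its brightest probe set (1376593_at) had signals of 435, 293, 395 and 287 on hyperthyroid 1, 2, 3 and 5, against 393, 321, 325 and 417 on control 7, 8, 9 and 11. The groups overlapped over nearly their whole range, with the same 2 hyperthyroid arrays, 2 and 5, at the bottom as for Foxo1. The log2 difference was -0.06 ± 0.18 (adjusted p = 0.913 in limma), 0.03 ± 0.18 without hyperthyroid 5 and 0.20 ± 0.18 without hyperthyroid 2 and 5.

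Of the ligases, Fbxo32, the substrate-binding subunit of an SCF ubiquitin ligase, gave a dim signal on its 1 probe set (1369188_at). Its signals were 57.8, 49.4, 40.5 and 62.6 on hyperthyroid 1, 2, 3 and 5, against 87.3, 3.09, 32.6 and 53.1 on control 7, 8, 9 and 11. The controls spanned the whole hyperthyroid range, and control 8 alone was near 0, below the signal of 28.2 at which probe sets were filtered on their mean. The means were 52.6 ± 9.75 in hyperthyroid and 44.04 ± 35.4 in control muscle (SD, n = 4 each). The log2 difference of 0.99 ± 0.88 (adjusted p = 0.679 in limma) was the largest of the 12 and also the least certain. Without control 8 it was -0.04 ± 0.43 (adjusted p = 0.983 in limma).

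Trim63, a ring finger ligase of the sarcomere that acts on myosin and other thick filament proteins, was brighter. Its probe set (1387804_at) had signals of 463, 491, 347 and 903 on hyperthyroid 1, 2, 3 and 5, against 461, 439, 500.1 and 363 on control 7, 8, 9 and 11. Hyperthyroid 5 lay far above the other 7 arrays, which did not separate by group. The means were 551 ± 243 in hyperthyroid and 441 ± 57.6 in control muscle (SD, n = 4 each). The log2 difference was 0.24 ± 0.25 (adjusted p = 0.727 in limma) with hyperthyroid 5 and -0.03 ± 0.17 (adjusted p = 0.954 in limma) without it.

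The promoters of 3 of these genes are shown because they hold one of the motifs searched: that of Trim63 a forkhead core, and those of Klf15 and Bnip3 an E-box. The sequences are the 250 bases before the RefSeq transcript start, build GRCr8, read 5′ to 3′ on the strand of the gene, with motif matches in capitals. The gene starts used are those of RefSeq, and the arrays do not tell which start these muscles use. In the annotated gene positions Klf15 begins at 124522652, so its window lies inside the annotated gene. Trim63 begins there at 151817209, so the last bases of its window also lie inside the gene.
Trim63 (chr5:151816986-151817235, plus strand): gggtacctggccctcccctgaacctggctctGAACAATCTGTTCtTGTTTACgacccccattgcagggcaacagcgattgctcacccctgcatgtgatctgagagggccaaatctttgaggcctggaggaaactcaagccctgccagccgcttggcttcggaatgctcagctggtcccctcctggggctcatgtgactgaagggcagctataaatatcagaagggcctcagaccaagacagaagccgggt
Klf15 (chr4:124522765-124523014, plus strand): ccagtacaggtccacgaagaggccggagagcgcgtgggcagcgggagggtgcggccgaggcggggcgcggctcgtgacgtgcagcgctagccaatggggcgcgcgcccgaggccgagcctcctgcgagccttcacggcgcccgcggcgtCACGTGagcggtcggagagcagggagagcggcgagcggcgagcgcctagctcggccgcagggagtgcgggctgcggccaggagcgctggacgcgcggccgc
Bnip3 (chr1:203154963-203155212, minus strand): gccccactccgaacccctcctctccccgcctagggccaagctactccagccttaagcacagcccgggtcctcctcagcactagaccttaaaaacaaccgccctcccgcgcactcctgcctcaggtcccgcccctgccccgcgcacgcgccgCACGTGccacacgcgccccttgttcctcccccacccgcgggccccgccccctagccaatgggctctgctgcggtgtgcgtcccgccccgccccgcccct

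RefSeq promoters were matched by symbol for 7 of the 9 genes. None was matched for Fbxo32 and Foxo3, so their promoters were not searched for any motif. The 7 include Map1lc3b, for which no expression value is given. The forkhead core GTAAACA, the site of FoxO factors, was searched on both strands and was found in 1 of the 7, that of Trim63, as TGTTTAC at positions -205 to -199 from the start. It occurs in 3.25% of 27457 promoter windows of the same length. Beside it, without overlap, lies the palindrome of the glucocorticoid receptor less its outer bases, at -219 to -207. That shortened form was searched after the sequence had been seen and occurs in 0.0401% of the windows. The full palindromic glucocorticoid response element was in 0 of the 7 and in 0.00364% of all windows. It is so rare that its absence from the 7 says nothing about them. The E-box CACGTG, bound by clock factors and by TFEB, was in the promoters of Klf15 (-101 to -96) and Bnip3 (-99 to -94) and in 5.79% of all windows. The nuclear receptor half-site AGGTCA, on both strands, was in 0 of the 7 and in 13.7% of all windows, and its direct repeat that forms the classical thyroid hormone response element was in 0 of the 27457 windows. A match is a description of these letters and not a bound site. Of the 2 genes with the E-box, Klf15 stood at -0.50 and Bnip3 at 0.14 (-0.45 and -0.13 without hyperthyroid 5), and Trim63, with the forkhead core, stood at 0.24 (-0.03 without hyperthyroid 5). None of them passed.

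Among the autophagy genes, Bnip3, a mitochondrial membrane protein that recruits autophagosomes to mitochondria, gave signals of 2210.1, 2803, 2989 and 5610 on hyperthyroid 1, 2, 3 and 5, against 3231, 2862, 2867 and 2656 on control 7, 8, 9 and 11 (probe set 1387805_at). As for Trim63, hyperthyroid 5 was the one high array, and hyperthyroid 1 was the lowest of the 8. The log2 difference was 0.14 ± 0.24 (adjusted p = 0.839 in limma), and -0.13 ± 0.13 (adjusted p = 0.661 in limma) without hyperthyroid 5.

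**Figure D2:**
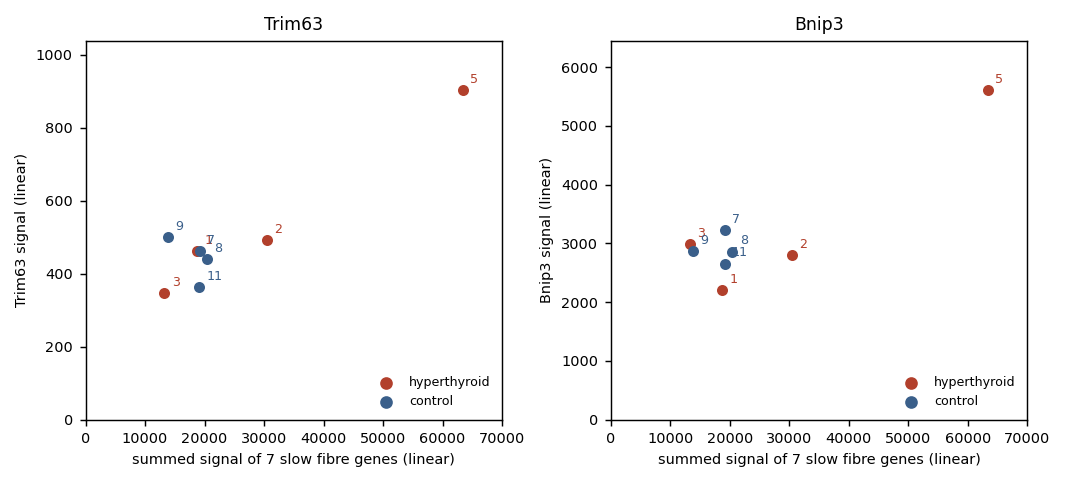
Signals of Trim63 (left) and Bnip3 (right) on the vertical axis against the summed signal of 7 slow fibre genes on the horizontal axis, both linear, 1 point per array with the rat's number (hyperthyroid and control in different colours). Hyperthyroid 5 stands alone at the upper right of both panels (63393 summed signal, with Trim63 at 903 and Bnip3 at 5610), and the other 7 arrays lie at or below a summed signal of 30433.

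Both genes were thus high on the array that lacked Myh13 and was high in slow fibre genes. The summed slow fibre signal was 63393 there and 30433 on hyperthyroid 2, the next highest, on which Trim63 (491) and Bnip3 (2803) were within the range of the controls. Slow fibre, limb position, adipocyte and leukocyte markers and the T3 label cannot be told apart on this 1 array, and their part in both values was not tested. With the Gapdh ratio as a covariate Bnip3 stood at 0.53 (unadjusted p = 0.0157, adjusted p = 0.250 in limma) and Trim63 at 0.47 (adjusted p = 0.490 in limma). That fit includes hyperthyroid 5, which had the lowest Gapdh ratio of all arrays (1.44), and it was not run without that array. Without hyperthyroid 5 and without the covariate, Bnip3 stood at -0.13 and Trim63 at -0.03.

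Gabarapl1 encodes a ubiquitin-like protein of the Atg8 family that is attached to autophagosome membranes. Its brighter probe set (1371680_at) had signals of 359, 262, 296 and 257 on hyperthyroid 1, 2, 3 and 5, against 209.8, 462, 402 and 334 on control 7, 8, 9 and 11. Control 7 was the lowest of all arrays and the other 3 controls were above hyperthyroid 2, 3 and 5, so the groups overlapped. The log2 difference was -0.22 ± 0.24 (adjusted p = 0.737 in limma). It was -0.065 without control 8 and -0.44 without control 7 (unadjusted p = 0.0431, adjusted p = 0.446 in limma). The dimmer probe set (1378842_at), with signals of 70.5 to 111 on hyperthyroid and 81.6 to 156 on control arrays, stood at -0.28 ± 0.27 (adjusted p = 0.706 in limma), and at -0.094 without control 11.

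Sqstm1 encodes p62, the adaptor that links ubiquitinated cargo to the autophagosome. Its brightest probe set (1371353_at) had signals of 1729, 1579, 1092 and 1130.5 on hyperthyroid 1, 2, 3 and 5, against 1400.2, 1749, 1827 and 1650.4 on control 7, 8, 9 and 11. The 2 lowest arrays were hyperthyroid 3 and 5, and hyperthyroid 1 reached the controls. The log2 difference was -0.28 ± 0.17 (adjusted p = 0.544 in limma).

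The 3 tested probe sets of Sqstm1 did not behave alike. The probe set 1389381_at had signals of 104, 107, 109 and 173 on hyperthyroid 1, 2, 3 and 5, against 148, 215, 195 and 202 on control 7, 8, 9 and 11. Hyperthyroid 1, 2 and 3 lay close together below all controls, and hyperthyroid 5 lay above control 7. Its log2 difference was -0.64 ± 0.23 (unadjusted p = 0.0154, adjusted p = 0.333 in limma), and -0.82 ± 0.21 (adjusted p = 0.119 in limma) without hyperthyroid 5. When the fit held the Gapdh ratio as a covariate, it was -0.38 ± 0.23 and its unadjusted p was 0.133, above 0.05. The third, 1371221_at, pointed the other way: its signals were 59.2, 77.6, 62.1 and 45.9 on hyperthyroid 1, 2, 3 and 5, against 55.6, 36.9, 42.0 and 51.6 on control 7, 8, 9 and 11. Its log2 difference was 0.39 ± 0.33 (adjusted p = 0.665 in limma). Without hyperthyroid 5 the groups of these 2 probe sets did not overlap, in opposite directions. Together with the brighter Klf15 probe set that made 3 of 12, 2 lower and 1 higher, where 6.51% of all probe sets were lower and 8.28% higher without overlap, 14.8% in all.

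**Figure D3:**
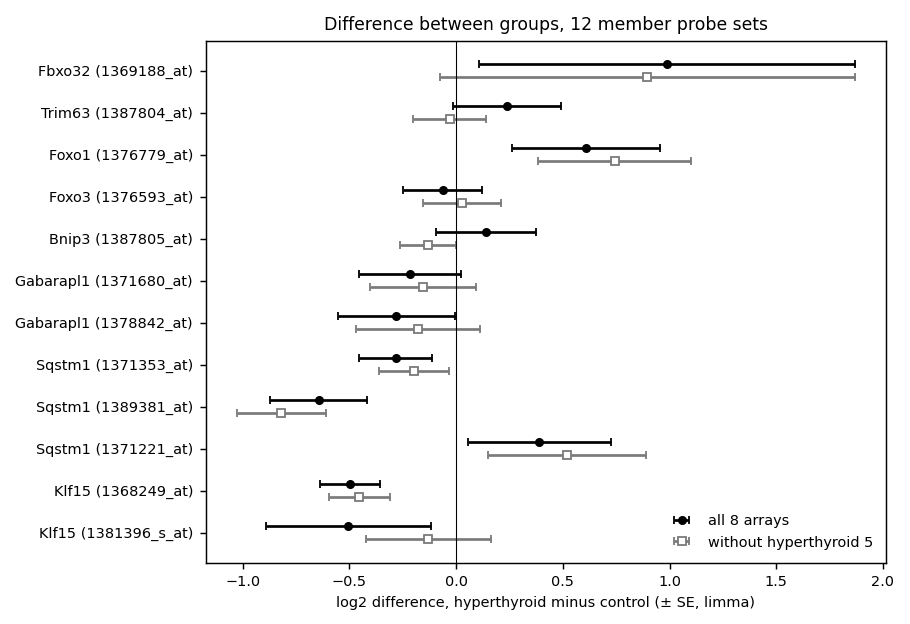
Log2 difference, hyperthyroid minus control, of the 12 tested probe sets (horizontal axis, ± SE from limma), on all 8 arrays (filled circles) and without hyperthyroid 5 (open squares). Trim63 (0.24 and -0.03), Foxo3 (-0.06 and 0.03) and Bnip3 (0.14 and -0.13) change sign without that array, while Klf15 1368249_at (-0.50 and -0.45) and Sqstm1 1389381_at (-0.64 and -0.82) stay below 0.

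The 6 probe sets that were not tested, of Foxo1, Foxo3, Sqstm1 and Klf15, had signals of 2.47 to 58.4 on hyperthyroid and 1.07 to 38.6 on control arrays, with the groups overlapping in each.

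The members did not vary together as a group across the arrays. Of the 28 pairs of genes, compared by the log2 signal of the brightest probe set over 8 arrays, 0 passed an exact permutation test of Pearson's r adjusted over the 28, and 4 had an unadjusted p under 0.05. Spearman's rho likewise gave 0 and 2. The smallest p was that of Fbxo32 and Gabarapl1 (r = -0.75, exact permutation p = 0.00826, adjusted p = 0.231; rho = -0.79, exact permutation p = 0.0279, adjusted p = 0.391). Its r was -0.52 without control 7 and 8, the arrays farthest from the Fbxo32 median (exact permutation p = 0.294), so it rests largely on those 2. Foxo1 and Klf15 ran in opposite directions (r = -0.72, exact permutation p = 0.0369, adjusted p = 0.316; rho = -0.57, exact permutation p = 0.151, adjusted p = 0.598). Their r was -0.87 without hyperthyroid 5 (exact permutation p = 0.00575, adjusted p = 0.161), and -0.43 without hyperthyroid 1 and control 7, the arrays farthest from the Foxo1 median, so the relation rests largely on those 2 arrays. Trim63 and Bnip3 had the highest positive r, 0.80 (exact permutation p = 0.0633, adjusted p = 0.354; rho = 0.24, exact permutation p = 0.582, adjusted p = 0.925). It was 0.14 without hyperthyroid 5 and 3 and -0.08 without hyperthyroid 5 alone, so it rests on that array. Fbxo32 and Trim63, the 2 ligases, were not among the pairs with an unadjusted p under 0.05. Each group held too few arrays for a correlation of its own.

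The genes most like a member across the 8 arrays, out of 10438, were listed as a description. They are the top of a search of that many genes over few arrays, in which a high r also arises between unrelated genes. The r reached by chance was not computed. For Foxo1 they were Sesn2, a stress-induced regulator of mTOR complex 1 (r = 0.96, rho = 0.83), the ubiquitin ligase Cblb (r = 0.95, rho = 0.90) and Nfkbia, the inhibitor of NF-kappa B (r = 0.94, rho = 0.95). For Klf15 they were Atp6v1e1, a subunit of the vacuolar proton pump (r = 0.97, rho = 0.76), Herpud2 (r = 0.96, rho = 0.88) and Slc35e3 (r = 0.96, rho = 0.95). For Trim63 they were Eapp, Dcun1d2 and Ythdf2 (r = 0.97, 0.95 and 0.95), which without hyperthyroid 5 had r = 0.93, 0.81 and 0.91. For Fbxo32 they were Cnfn, Phactr4 and Syt8 (r = 0.996, 0.99 and 0.97, rho = 0.98, 0.95 and 0.86). On control 8 Fbxo32 was at 3.09, Cnfn at 4.62, Phactr4 at 55.0 and Syt8 at 5.62, the lowest of the 8 arrays for each. The likeness without control 8 was not computed.

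The other genes of these pathways, in 5 lists, were compared by counts. In none of them did a gene pass the adjusted threshold in limma with all 8 arrays or without hyperthyroid 5. Over all genes, by the brightest probe set, 12.2% had an unadjusted p under 0.05, 6.34% higher and 5.83% lower in hyperthyroid arrays. Without hyperthyroid 5 these were 7.88% higher and 8.26% lower. On 8 arrays, 7.55% of all probe sets had groups that did not overlap, 4.33% higher and 3.23% lower.

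**Figure D4:**
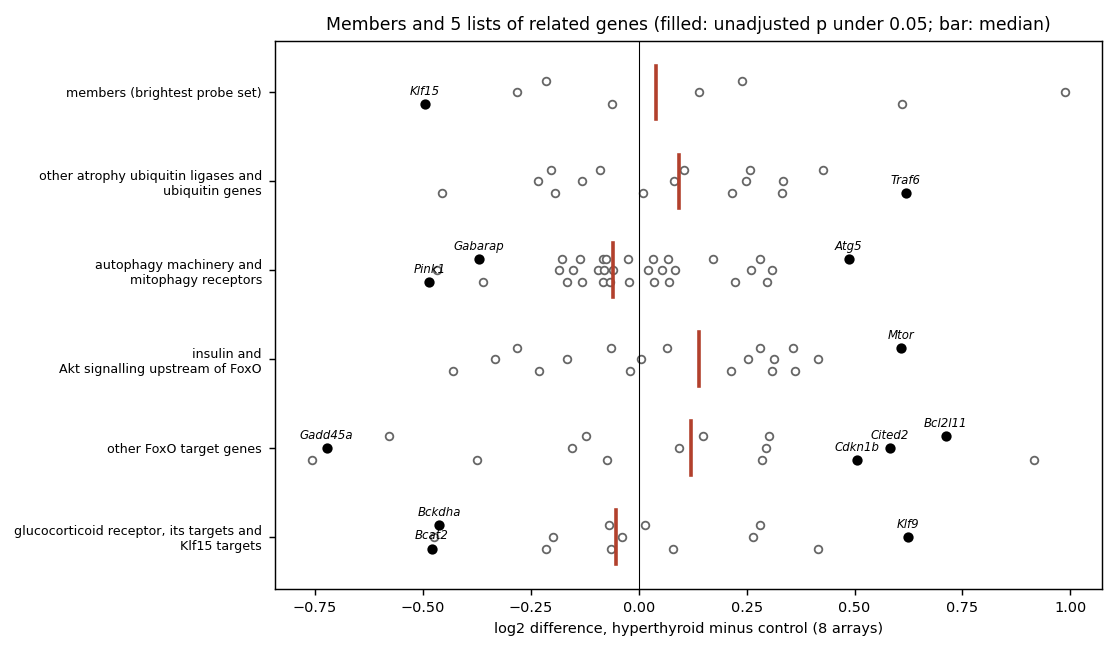
Log2 difference, hyperthyroid minus control, on 8 arrays (horizontal axis) of the members and of 5 lists of related genes (rows), each point 1 gene, with filled points at an unadjusted p under 0.05 and a bar at the median. Klf15 (-0.50) is the one filled member, and the list medians lie between -0.06 and 0.14.

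Among 16 other ubiquitin ligases and ubiquitin genes, 10 were higher and 6 lower (median 0.09), and 1 was higher at an unadjusted p under 0.05. This was Traf6, a ligase needed for denervation atrophy in mouse, with signals of 245, 218, 235 and 237 on hyperthyroid 1, 2, 3 and 5 against 142, 183, 120.3 and 172 on control 7, 8, 9 and 11. All hyperthyroid arrays lay above all controls, with a log2 difference of 0.62 ± 0.18 (adjusted p = 0.288 in limma). Fbxo31 (0.43 ± 0.21) and Trim54, the sarcomeric MuRF3 (0.33 ± 0.17), had the next smallest p (adjusted p = 0.469 and 0.470 in limma). Without hyperthyroid 5 Fbxo31 stood at 0.25 ± 0.18, and 2 genes of the list were higher and 0 lower at an unadjusted p under 0.05.

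Of 33 genes of the autophagy machinery and mitophagy receptors, 14 were higher and 19 lower (median -0.06), with 1 higher and 2 lower at an unadjusted p under 0.05. Atg5, part of the conjugation enzyme for Atg8 proteins, stood at 0.49 ± 0.18, Pink1, the kinase that marks damaged mitochondria, at -0.49 ± 0.19, and Gabarap, the closest relative of Gabarapl1, at -0.37 ± 0.16. Their adjusted p were 0.354, 0.373 and 0.419 in limma. Gabarap had signals of 1132, 977, 1187 and 1697 on hyperthyroid 1, 2, 3 and 5, against 1485, 1586, 1643 and 1608 on control 7, 8, 9 and 11. As for Sqstm1 1389381_at, hyperthyroid 1, 2 and 3 were below all controls and hyperthyroid 5 was not. Without hyperthyroid 5 Gabarap stood at -0.53 ± 0.12 (adjusted p = 0.0935 in limma). Pink1 then stood at -0.32 ± 0.15, with an unadjusted p of 0.0540, and the list had 2 genes higher and 1 lower at an unadjusted p under 0.05. With all arrays, the groups of Bnip3l did not overlap (970 to 1271 on hyperthyroid, 892 to 947 on control arrays). Nor did those of Atg10 (75.2 to 119 and 125 to 159). The unadjusted p of Bnip3l and Atg10 were 0.107 and 0.0536 in limma.

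In the 18 genes of insulin and Akt signalling upstream of FoxO, 11 were higher and 7 lower (median 0.14), with 1 at an unadjusted p under 0.05. This was Mtor, the kinase of the growth pathway that FoxO opposes, at 0.61 ± 0.21, followed by Pik3ca (0.36 ± 0.17) and Akt2 (0.31 ± 0.16). Their adjusted p were 0.332, 0.4495 and 0.489 in limma. Mtor signals were 262 to 470.1 on hyperthyroid and 216 to 294 on control arrays, with only hyperthyroid 3 inside the range of the controls. Without hyperthyroid 5, 5 genes of the list were higher and 2 lower at an unadjusted p under 0.05. The higher ones were Mtor (0.54), Pik3ca (0.48), the kinase Pdpk1 that activates Akt (0.41), the mTOR complex 1 subunit Rptor (0.66) and the receptor Igf1r (0.70). The lower ones were the growth factor Igf1 (-0.59) and the translation repressor Eif4ebp1 (-0.50). Their adjusted p lay between 0.160 and 0.299 in limma.

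Of 16 other FoxO target genes, 9 were higher and 7 lower (median 0.12), with 3 higher and 1 lower at an unadjusted p under 0.05. The cell cycle inhibitor Cdkn1b stood at 0.51 ± 0.18, the DNA damage and atrophy gene Gadd45a at -0.72 ± 0.27 and the cell death gene Bcl2l11 at 0.71 ± 0.28 (adjusted p = 0.344, 0.347 and 0.382 in limma). These targets of FoxO thus lay on both sides of 0. Bcl2l11 signals were 108 to 121 on hyperthyroid and 41.4 to 96.1 on control arrays, without overlap. Without hyperthyroid 5 it stood at 0.69 ± 0.32, with an unadjusted p of 0.0523 in limma. The remaining higher gene, Cited2, stood at 0.58 ± 0.25, and at 0.42 ± 0.23 without hyperthyroid 5 (unadjusted p = 0.0403 and 0.0961 in limma). Gadd45a signals were 392, 349, 434 and 169 on hyperthyroid 1, 2, 3 and 5, all below the 455 to 609.7 of the controls. Hyperthyroid 5 was the lowest by far, and without it Gadd45a stood at -0.42 ± 0.16 (adjusted p = 0.234 in limma). The list then had 1 gene higher, Cdkn1b, and 1 lower, Gadd45a, at an unadjusted p under 0.05.

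The list of the glucocorticoid receptor, its targets and Klf15 targets held 14 tested genes, 6 higher and 8 lower (median -0.05), with 1 higher and 2 lower at an unadjusted p under 0.05. Sgk1 is in this list and in the insulin list. Bckdha and Bcat2, a dehydrogenase subunit and the transaminase of branched-chain amino acid breakdown that Klf15 is known to induce, stood at -0.46 ± 0.14 and -0.48 ± 0.18. Bckdha signals were 306, 279, 260.004 and 299 on hyperthyroid 1, 2, 3 and 5, against 365, 383, 409.8 and 418 on control 7, 8, 9 and 11, with no overlap. Other amino acid enzymes of this list did not share that direction. Bckdhb stood at -0.21 ± 0.18, Gpt at 0.28 ± 0.18, Prodh at 0.42 ± 0.49 and Glul at -0.07 ± 0.15. Without hyperthyroid 5 they stood at -0.12, 0.16, 1.01 and 0.0094. The amino acid enzymes of the list thus lay on both sides of 0. Klf9, a factor induced by both glucocorticoids and thyroid hormone, stood at 0.62 ± 0.19. The adjusted p in limma were 0.297 for Bckdha, 0.353 for Bcat2 and 0.288 for Klf9. The glucocorticoid targets Fkbp5 and Tsc22d3 stood at -0.04 ± 0.28 and 0.08 ± 0.15. Without hyperthyroid 5, 2 genes of the list were higher and 2 lower at an unadjusted p under 0.05. The higher ones were Prodh (1.01 ± 0.25, adjusted p = 0.109 in limma) and Klf9 (0.59 ± 0.19). The lower ones were Bckdha (-0.48 ± 0.15) and Bcat2 (-0.48 ± 0.19). With hyperthyroid 5 included, Prodh stood at 0.42 ± 0.49 (adjusted p = 0.757 in limma). Its signals were 419, 387, 210 and 62.5 on hyperthyroid 1, 2, 3 and 5, against 132 to 184 on control arrays.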

How the data were processed

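RNA labelled as extraocular muscle, of 8 rats (4 per group), was measured on 8 arrays. The markers of hyperthyroid 5 went against that label, and it was kept as labelled. The authors deposited intensity values, 1 linear signal per probe set and array. The submitters' processing notes name GCOS with no version. The means after trimming 2% at each end were 150.1 on each array, so the intensities had been scaled to each other, and medians ran from 47.8 to 58.5. From these, values were set to at least 1 and taken to log2, 57 control probe sets were left out, and the upper 60% by mean signal (18625 probe sets, above 28.2) were fitted with limma 3.58.1 in R 4.3.3 (eBayes with a trend, two-sided, Benjamini-Hochberg over all). Gene names came from the platform annotation, in which 20826 probe sets had 1 symbol, 436 several and 9780 none. A gene is represented by its brightest tested probe set. The fit was tested on simulated data. The number of arrays limits the precision, and no detection calls were used here.

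The members and lists were chosen with earlier results of these data known. The text names every member, the 3 genes with the smallest p of each list, the 3 genes most like Fbxo32, Trim63, Foxo1 and Klf15, and markers of arrays that stand apart. Fkbp5, Tsc22d3, Prodh, Bckdhb, Gpt, Glul, Cited2, Bnip3l, Atg10, Pdpk1, Rptor, Igf1r, Igf1 and Eif4ebp1 were named after their values were seen. Alternatives were another normalization, filter, pseudocount, variance model, array weights, the Gapdh ratio as a covariate, the mean of a gene's probe sets and leaving out arrays. No batch was fitted. The shortened glucocorticoid receptor motif was added after the promoter sequences had been seen.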

Additional observations from a re-analysis of the deposited data

Results flagged for a closer look

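Of 24 sets of 4 arrays (12 probe sets in each group), 2 had 1 array far from the other 3 by Dixon's ratio at its tabulated critical value. By chance about 1 in 20 sets is picked out in this way. For Sqstm1 1389381_at it was hyperthyroid 5, at 173 against 104 to 109 on hyperthyroid 1, 2 and 3, a ratio of 0.915. For Klf15 1368249_at it was hyperthyroid 2, at 538 against 409.8 to 429, a ratio of 0.853.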

How the results depend on the processing

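Under the 18 alternative fits, 0 member probe sets passed an adjusted p of 0.05, likewise 0 at 0.10. At an unadjusted p under 0.05 there were 2 as reported and in 12 of the alternatives, 3 in 5 of them and 4 with array weights. Of 214 recomputed differences, 202 kept their direction and 12 reversed, all of values that had not passed. Leaving out 1 array at a time, Fbxo32 lay between -0.040 (without control 8) and 1.57. Trim63 lay between -0.030 (without hyperthyroid 5) and 0.43, and was at -0.0028 with array weights and -0.13 without hyperthyroid 2 and 5. Foxo3 lay between -0.17 and 0.028 (without hyperthyroid 5), and was at 0.071 with array weights, 0.02 without hyperthyroid 2, 0.0057 without control 11 and 0.20 without hyperthyroid 2 and 5. Bnip3 lay between -0.13 (without hyperthyroid 5) and 0.32, and was at -0.17 without hyperthyroid 2 and 5, and Klf15 1381396_s_at at 0.11 in that fit. With the Gapdh ratio as a covariate Bnip3 was at 0.53, Trim63 at 0.47, Klf15 1381396_s_at at -0.92 and Sqstm1 1371353_at at -0.51. Over all 18 fits Sqstm1 1371353_at lay between -0.51 and -0.18. Foxo1 lay between 0.34 and 0.79 when 1 array was left out, Gabarapl1 1371680_at between -0.44 and -0.065 and 1378842_at between -0.40 and -0.094. Klf15 1368249_at lay between -0.62 and -0.45 in all 18 (adjusted p 0.123 to 0.488 in limma) and Sqstm1 1389381_at between -0.82 and -0.38 (adjusted p 0.119 to 0.550 in limma), where -0.38 is the fit with the Gapdh ratio and its unadjusted p there was 0.133. Median centring moved the median of all probe sets to -0.09, against 0.03 as deposited, a shift that lowers each difference alike. Over all 18625 probe sets, 0 passed as reported, 6 with array weights, 8 with the Gapdh ratio, 29 without hyperthyroid 5 and 9 without hyperthyroid 2 and 5, and none of these was a member. The mean of a gene's probe sets reversed 0 of the 8 genes. The number of member pairs correlated at an adjusted p of 0.05 was 0 on all arrays, without hyperthyroid 5 and without the 2 arrays farthest from the median. Probe sets near the filter level of 28.2, such as Fbxo32, are measured less precisely. No paired analysis was possible because the groups share no replicate number.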
